A study of Homo sapiens with 15 samples.

Results

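Readthrough transcripts joined from neighbouring genes were followed in Brg1 and Sfpq immunoprecipitates of prostate cancer cells. They were found by name: a row with exactly 1 hyphen, of which at least 1 part, of 3 or more characters, is itself a gene name in the same table. Names whose second part starts with AS, IT, OT or DT and a digit were left out. The rule found 70 of 14296 names (82 of 22542 rows) in 22Rv1 and 73 of 14176 names (94 of 22169 rows) in LNCaP. Of these, 62 names in 22Rv1 and 64 in LNCaP join a pair of genes. The other 8 and 9 end in -AS or -DT, the usual marks of antisense and divergent transcripts, so the label of a readthrough did not hold for them, and they are given apart at the end. In all, 69 readthrough names occurred in either line and 57 in both. Many genes have a second row with the suffix .primary, whose meaning the labels do not give, and the rows were kept apart: readthrough names filled 57 .primary rows and 16 rows without suffix in 22Rv1, and 59 and 23 in LNCaP.

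The series asks about SWI/SNF, the chromatin remodelling complex, and SCHLAP1, a long noncoding RNA of prostate cancer. 22Rv1 and LNCaP are established human prostate cancer lines, fixed in 0.3% formaldehyde with no further treatment. In RNA immunoprecipitation sequencing, an antibody draws a protein and the RNA attached to it out of the lysate, and Input is RNA without that step. 22Rv1 had 2 libraries with the Abcam ab110641 antibody against Brg1 (SMARCA4, an ATPase of SWI/SNF), 2 with the Genetex GTX114209 antibody against Sfpq (a splicing-associated RNA-binding protein), 3 with nonspecific IgG (Sigma I5006) and 2 of Input. LNCaP had 2 each of Brg1, IgG and Input. All groups share this fixation, the labels name no other difference in genotype or treatment, and nothing in them says that replicates A, B and C were separate cultures, so p-values measure the spread between these libraries, which may be technical.

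A readthrough transcript begins at one gene, fails to end at that gene's cleavage and polyadenylation site, runs on into the next gene on the same strand and is usually spliced across the gap. Cleavage and polyadenylation factors normally cut the RNA at the first gene's end. Because such a transcript shares exons with both genes, most of its bases are also bases of its component genes, and how reads are divided among the 3 rests on the counting.

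Values are given as RPM, the recovered reads of a row per 1000000 reads of its library. A change is the difference of mean log2(RPM + 1) with its standard error (SE) from limma, and "rose" or "fell" means a Benjamini-Hochberg adjusted p under 0.05 over all rows of the table. It is a change in share of reads, and the scale understates changes of low rows. Library totals ran from 490879 to 47871438 reads in 22Rv1 and from 22184 to 7506724 in LNCaP, where both IgG libraries were too shallow for a test. Rows with .primary held 62.7% and 65.7% of reads with Brg1 in 22Rv1, 34.8% and 38.2% in Input and 27.5% and 33.4% with Sfpq, so each kind of row is set beside all rows of its own kind. Of 10 luminal prostate markers, 6 had a row in 22Rv1 (KLK3, KLK2, FOLH1 and EPCAM had none) with summed Input of 222 to 230 RPM, and 10 in LNCaP with 4711 to 4806. Markers of blood had no row in either line, and of 3 basal, 2 endothelial and 3 fibroblast markers, 0, 0 and 1 had one in 22Rv1 and 1 each in LNCaP.

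All 69 readthrough names matched a RefSeq gene of GRCh38.p14, 63 by symbol and 6 by synonym, and RefSeq lists 48 as protein coding and 21 as lncRNA. Of 67 names with both component genes placed on 1 chromosome, the readthrough gene enclosed at least 99% of both components in 46. The components lay a median of 7259 bases apart, and those of MSH5-SAPCD1 and PALM2-AKAP2 overlapped. The readthrough genes spanned a median of 58439 bases, from 5869 (INO80B-WBP1) to 828041 (IQCJ-SCHIP1), against 13544 for all RefSeq genes with a start window, whether measured here or not. Among .primary rows measured here, the median span was 64590 bases for readthrough rows and 45400 for all in 22Rv1. In LNCaP it was 49430 and 43560. Among members described below, IQCJ-SCHIP1 lies at chr3:159069319-159897359, CHURC1-FNTB at chr14:64914361-65062655, C1QTNF3-AMACR, an lncRNA in RefSeq, at chr5:33986986-34124528, and RPS10-NUDT3 at chr6:34287194-34426069. TVP23C-CDRT4 lies at chr17:15436015-15563483, SPECC1L-ADORA2A at chr22:24270817-24442360, SENP3-EIF4A1, also an lncRNA, at chr17:7561992-7579006, and ISY1-RAB43 at chr3:129087572-129161063.

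For 37 names the RefSeq table held the start of both the readthrough gene and its first component: 18 had the same start and 25 had starts within 50 bases. The last 100 bases before the start are shown for 4 readthrough genes, chosen after their values were seen as examples of rows described below beside the gene they start with, in lower case with the CG dinucleotides in capitals. TVP23C-CDRT4 starts where TVP23C does, on the minus strand (chr17:15563484-15563583), and ISY1-RAB43 starts where ISY1 does, on the minus strand (chr3:129161064-129161163). SPECC1L-ADORA2A (chr22:24270717-24270816, plus strand) starts 14 bases before SPECC1L (chr22:24270731-24270830, plus strand). SENP3-EIF4A1 (chr17:7561892-7561991, plus strand) starts 73 bases after SENP3 (chr17:7561819-7561918), and EIF4A1 (chr17:7572725-7572824) has a start of its own inside the readthrough gene.
TVP23C-CDRT4 and TVP23C: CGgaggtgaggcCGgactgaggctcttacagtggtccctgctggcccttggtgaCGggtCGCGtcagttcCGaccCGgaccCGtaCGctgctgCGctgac
ISY1-RAB43 and ISY1: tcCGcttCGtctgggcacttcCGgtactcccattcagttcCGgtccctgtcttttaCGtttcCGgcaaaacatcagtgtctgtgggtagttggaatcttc
SPECC1L-ADORA2A: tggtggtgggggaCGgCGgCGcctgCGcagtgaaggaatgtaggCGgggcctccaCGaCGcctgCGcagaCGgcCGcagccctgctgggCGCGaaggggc
SPECC1L: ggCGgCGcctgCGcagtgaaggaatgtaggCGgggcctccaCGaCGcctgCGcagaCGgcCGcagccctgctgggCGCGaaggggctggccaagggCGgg
SENP3-EIF4A1: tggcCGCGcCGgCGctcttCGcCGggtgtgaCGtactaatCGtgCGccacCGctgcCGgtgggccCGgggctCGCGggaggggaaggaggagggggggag
SENP3: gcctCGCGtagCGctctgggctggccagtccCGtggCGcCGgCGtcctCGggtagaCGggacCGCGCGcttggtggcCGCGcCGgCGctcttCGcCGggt
EIF4A1: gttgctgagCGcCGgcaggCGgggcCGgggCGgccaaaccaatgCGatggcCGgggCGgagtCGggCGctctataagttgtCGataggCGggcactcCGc
The 7 windows held from 6 (ISY1-RAB43) to 18 (SENP3) CG dinucleotides. Over the longer 300-base RefSeq windows, from 250 bases before a start to 50 after it, the 68 windows of readthrough genes held a median of 23.5 CG dinucleotides against 14 in all 35116 windows. The motif TATAAA, sought on both strands, was in 5.88% of the 68 and in 11.5% of all. Windows of all genes include genes with no row here, so they are not a background of measured genes. These are descriptions of letters in a window and say nothing of a factor.

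Readthrough rows held a small share of the reads of each library. In Input their .primary rows summed to 0.186% ± 0.00464 of reads in 22Rv1 and 0.163% ± 0.0207 in LNCaP (SD, n = 2 each), and their rows without suffix to 0.0283% and 0.0371%. Names with a .primary row alone made up 46 of the 62 readthrough names in 22Rv1 and 41 of the 64 in LNCaP, against 24.1% and 24.4% of all names. Transcript lengths were not used, so the order of rows by reads is not an order by molecules.

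The row with most Input reads in 22Rv1 was C7orf55-LUC7L2.primary, which joins a mitochondrial assembly factor gene to a gene for a splicing factor of the U1 snRNP, at 375 and 324 RPM. It was also high in LNCaP Input, at 216 and 179. RBM14-RBM4.primary, from a pair of genes for RNA-binding proteins, had 150 and 116 in 22Rv1 and 108 and 99.5 in LNCaP. C1QTNF3-AMACR.primary separated the lines. It ends in AMACR, a racemase of branched-chain fatty acid oxidation used as a prostate cancer marker, and led LNCaP Input at 244 and 185 RPM, against 41.1 and 38.5 in 22Rv1. This difference between the lines was not tested. URGCP-MRPS24.primary, which ends in a gene of the mitochondrial ribosome, was among the 5 highest in LNCaP, with 70.0 and 52.4 in Input and 51.8 and 67.8 with Brg1, which overlap. C7orf55-LUC7L2.primary, C1QTNF3-AMACR.primary and URGCP-MRPS24.primary had no component row of the same kind in either line. For these rows, RNA of the component genes by themselves cannot be told apart from readthrough RNA.

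With Brg1 in 22Rv1, readthrough .primary rows were mostly higher than Input or not called, and rows without suffix mostly lower or not called. Of the 57 .primary rows, 26 rose and 2 fell against Input, where 51.4% of all .primary rows rose and 9.74% fell, and their median change of 0.44 lay below the 0.53 of all .primary rows. Of the 16 rows without suffix, 0 rose and 6 fell, where 2.43% of all such rows rose and 74.2% fell, with a median of -0.68 against -0.77. An unadjusted p under 0.05 also gave 0 rows higher in limma, edgeR called 0 and DESeq2 2. Over both kinds, 26 rose and 8 fell, against 6 and 11 at the authors' scaling and 14 and 21 as shares within a kind of row. Summed readthrough .primary rows took 0.278% and 0.292% of reads with Brg1, above both Input libraries at 0.183% and 0.189%. All .primary rows together took 62.7% and 65.7% with Brg1 and 34.8% and 38.2% in Input. The rise of the readthrough sum was therefore not particular to readthrough rows. In the 3 IgG libraries the same sum was 0.121% to 0.205%.

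**Figure D1:**
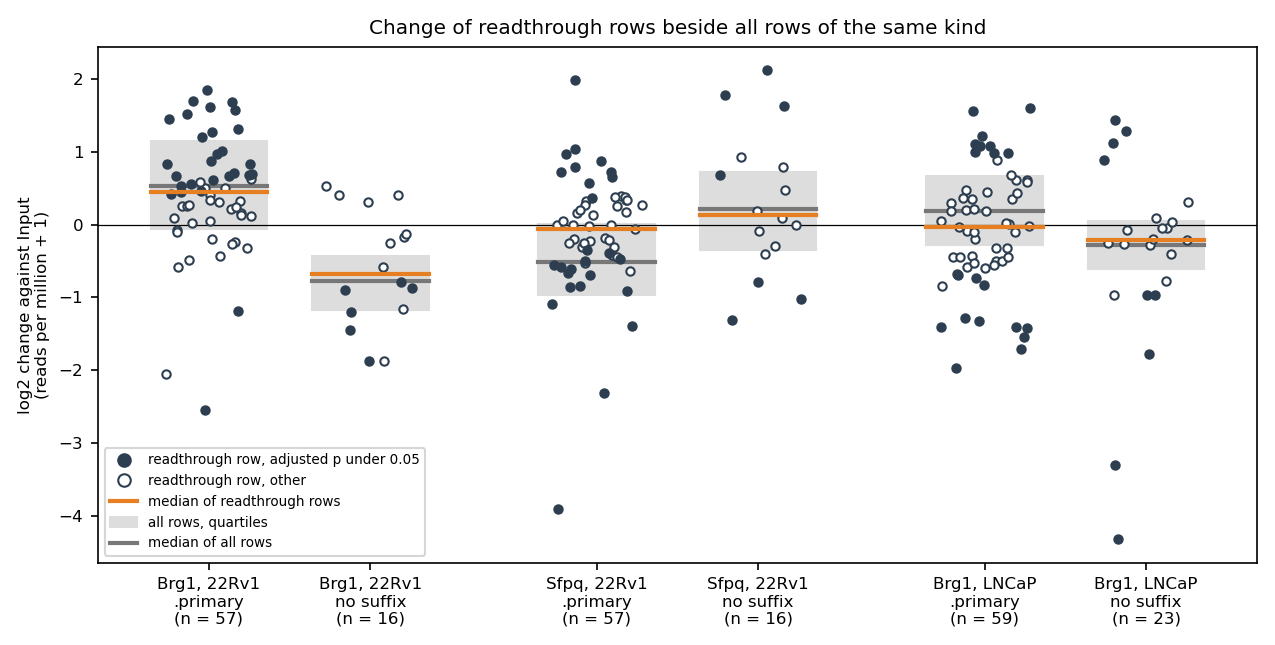
Log2 change against Input of every readthrough row (points, filled at an adjusted p under 0.05), by comparison and kind of row, with the quartiles (grey box) and median (grey line) of all rows of that kind. Orange lines are medians of the readthrough rows: with Brg1 in 22Rv1 they lie at 0.44 for .primary rows and -0.68 for rows without suffix.

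IQCJ-SCHIP1.primary, which ends in SCHIP1, the gene of a partner of the NF2 tumour suppressor protein, rose most. It had 42.9 and 37.0 RPM in Input and 145 and 148 with Brg1, a change of 1.85 (SE 0.15, adjusted p = 1.1e-07). Its IgG libraries had 75.9, 10.3 and 4.07, all below both Brg1 libraries. CHURC1-FNTB.primary ends in FNTB, the beta subunit of the farnesyltransferase that adds lipid anchors to proteins. It went from 40.9 and 41.3 to 150 and 122 (change 1.69, SE 0.15, adjusted p = 3.3e-07), and its IgG libraries ran from 22.4 to 223, on both sides of the Brg1 values. C1QTNF3-AMACR.primary rose from 41.1 and 38.5 to 137 and 124 (change 1.68, SE 0.14, adjusted p = 1.8e-07), with IgG between 14.3 and 133, so 1 IgG library reached the Brg1 values.

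PALM2-AKAP2.primary ends in AKAP2, an anchoring protein of protein kinase A. It had 64.7 and 59.2 RPM in Input and 206 and 179 with Brg1 (change 1.62, SE 0.15, adjusted p = 3.9e-07), above its IgG libraries at 168, 10.9 and 91.7. TVP23C-CDRT4.primary, from a Golgi membrane protein gene, had 92.1 and 89.0 in Input and 285 and 260 with Brg1 (change 1.58, SE 0.14, adjusted p = 2.9e-07). One of its IgG libraries, at 256, came close to the lower Brg1 library. ST20-MTHFS.primary, which ends in a folate enzyme gene, rose by 1.01, from 77.4 and 66.7 to 144 and 148. SYNJ2BP-COX16.primary, from a pair of genes for mitochondrial proteins, rose by 1.52, from 14.3 and 24.4 to 46.7 and 65.8. Of the rows with most Input reads, 2 did not pass: C7orf55-LUC7L2.primary (308 and 298 with Brg1, adjusted p = 0.19) and RBM14-RBM4.primary (111 and 100.3, adjusted p = 0.075) lay just below their Input libraries.

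The largest fall was in SLX1A-SULT1A3.primary, which joins a nuclease subunit to a catecholamine sulfotransferase. It had 18.0 and 12.5 RPM in Input and 6.44 and 0 with Brg1 (change -2.55, SE 0.64, adjusted p = 0.0026). The Brg1 replicates held 306 reads and 0 reads, and without replicate B, at 0, the change was -1.10 (adjusted p = 0.025). This gene has a near-identical copy, SLX1B-SULT1A4, so its reads may be split between copies. BOLA2-SMG1P6.primary, which ends in a pseudogene copy of SMG1, had 16.6 and 17.2 in Input and 6.63 and 7.03 with Brg1, a fall of 1.19 on the log2 scale (adjusted p = 3.7e-04).

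Rows without suffix also fell. RPS10-NUDT3 joins a ribosomal protein gene to a diphosphoinositol phosphatase gene and had 19.5 and 17.4 in Input and 2.25 and 7.58 with Brg1 (change -1.88, SE 0.35, adjusted p = 2.3e-04). ATP5MF-PTCD1, from an ATP synthase subunit and a mitochondrial RNA-binding protein, had 12.5 and 7.05 in Input and 0.863 and 6.78 with Brg1 (change -1.45, SE 0.46, adjusted p = 0.011). Without Brg1 replicate A the change was -0.42 (adjusted p = 0.25), and without Input replicate A -1.08 (adjusted p = 0.10). C7orf55-LUC7L2 without suffix had 34.8 and 41.3 in Input and 15.5 and 16.3 with Brg1, a fall of 1.21 (SE 0.20, adjusted p = 1.0e-04).

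With Sfpq, readthrough rows of both kinds were called in both directions. In the table as a whole, 11.8% of .primary rows rose and 50.7% fell, and 38.2% of rows without suffix rose and 20.3% fell. Of the 57 readthrough .primary rows, 10 rose and 16 fell, with a median of -0.06 against -0.52 for all .primary rows. Of the 16 without suffix, 4 rose and 3 fell, with a median of 0.13 against 0.22. Over both kinds, 14 rose and 19 fell, against 4 and 14 at the authors' scaling, 19 and 14 with TMM factors, 20 and 13 as shares within a kind of row and 20 and 8 by DESeq2 with its own size factors. Input libraries are shared between the Brg1 and Sfpq comparisons, so the values are given side by side and their likeness was not measured.

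BLOC1S5-TXNDC5 joins a gene for a lysosome-related organelle complex subunit to TXNDC5, a protein disulfide isomerase of the endoplasmic reticulum. It had 17.2 and 10.8 RPM in Input and 57.7 and 68.0 with Sfpq, a change of 2.12 (SE 0.21, adjusted p = 1.6e-06), and 12.3 and 10.4 with Brg1. SPECC1L-ADORA2A.primary, which runs from a cytoskeletal gene into an adenosine receptor gene, had 49.5 and 38.2 in Input and 153 and 200.2 with Sfpq (change 1.98, SE 0.18, adjusted p = 7.4e-07). It was also called higher with Brg1, at 138 and 105 (change 1.45, adjusted p = 4.8e-06). Its IgG libraries had 4.52, 118 and 0.

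PALM2-AKAP2 without suffix had 3.36 and 7.11 in Input and 21.3 and 17.8 with Sfpq (change 1.78, SE 0.29, adjusted p = 8.8e-05), while its .primary row had 64.7 and 59.2 in Input and 47.3 and 60.0 (adjusted p = 0.23). RTEL1-TNFRSF6B, from a telomere helicase gene and a decoy receptor gene, had 33.9 and 27.9 in Input and 79.6 and 119 with Sfpq (change 1.63, SE 0.20, adjusted p = 8.2e-06). SENP3-EIF4A1.primary, from a SUMO protease gene and the helicase gene of translation initiation, had 9.02 and 5.92 in Input and 13.3 and 19.6 with Sfpq (change 1.04, adjusted p = 0.0027).

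The row that fell most with Sfpq was again SLX1A-SULT1A3.primary, with 0 reads and 1 read in the Sfpq libraries and 862 and 200 in Input (adjusted p = 1.1e-04). As a ratio of pooled shares, Input was 241-fold higher, with a 95% exact interval of 43.1 to 9521 that covers counting error only. Summed with SLX1A.primary, its 1 component row of the same kind, SLX1A-SULT1A3.primary had 41.6 and 36.2 RPM in Input. That sum was 25.6 and 39.4 with Sfpq, a change of -0.28 with overlapping groups. TMEM189-UBE2V1.primary, which ends in a ubiquitin-conjugating enzyme variant gene, had 22.0 and 9.98 RPM in Input and 0 and 9.25 with Sfpq (change -2.31, SE 0.71, adjusted p = 0.011), and without Sfpq replicate A, at 0, the change was -0.63 (adjusted p = 0.23). BOLA2-SMG1P6.primary had 4.90 and 6.80 with Sfpq (change -1.40, SE 0.23), and MSH5-SAPCD1, which starts in a gene of meiotic recombination, went from 15.2 and 18.4 to 5.60 and 6.80 (change -1.31, SE 0.22). HSPE1-MOB4.primary, from a mitochondrial chaperonin gene, had 9.78 and 8.54 in Input and 1.68 and 7.48 with Sfpq (change -1.09, SE 0.39, adjusted p = 0.026), and without Sfpq replicate A the change was -0.26 (adjusted p = 0.46).

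**Figure D2:**
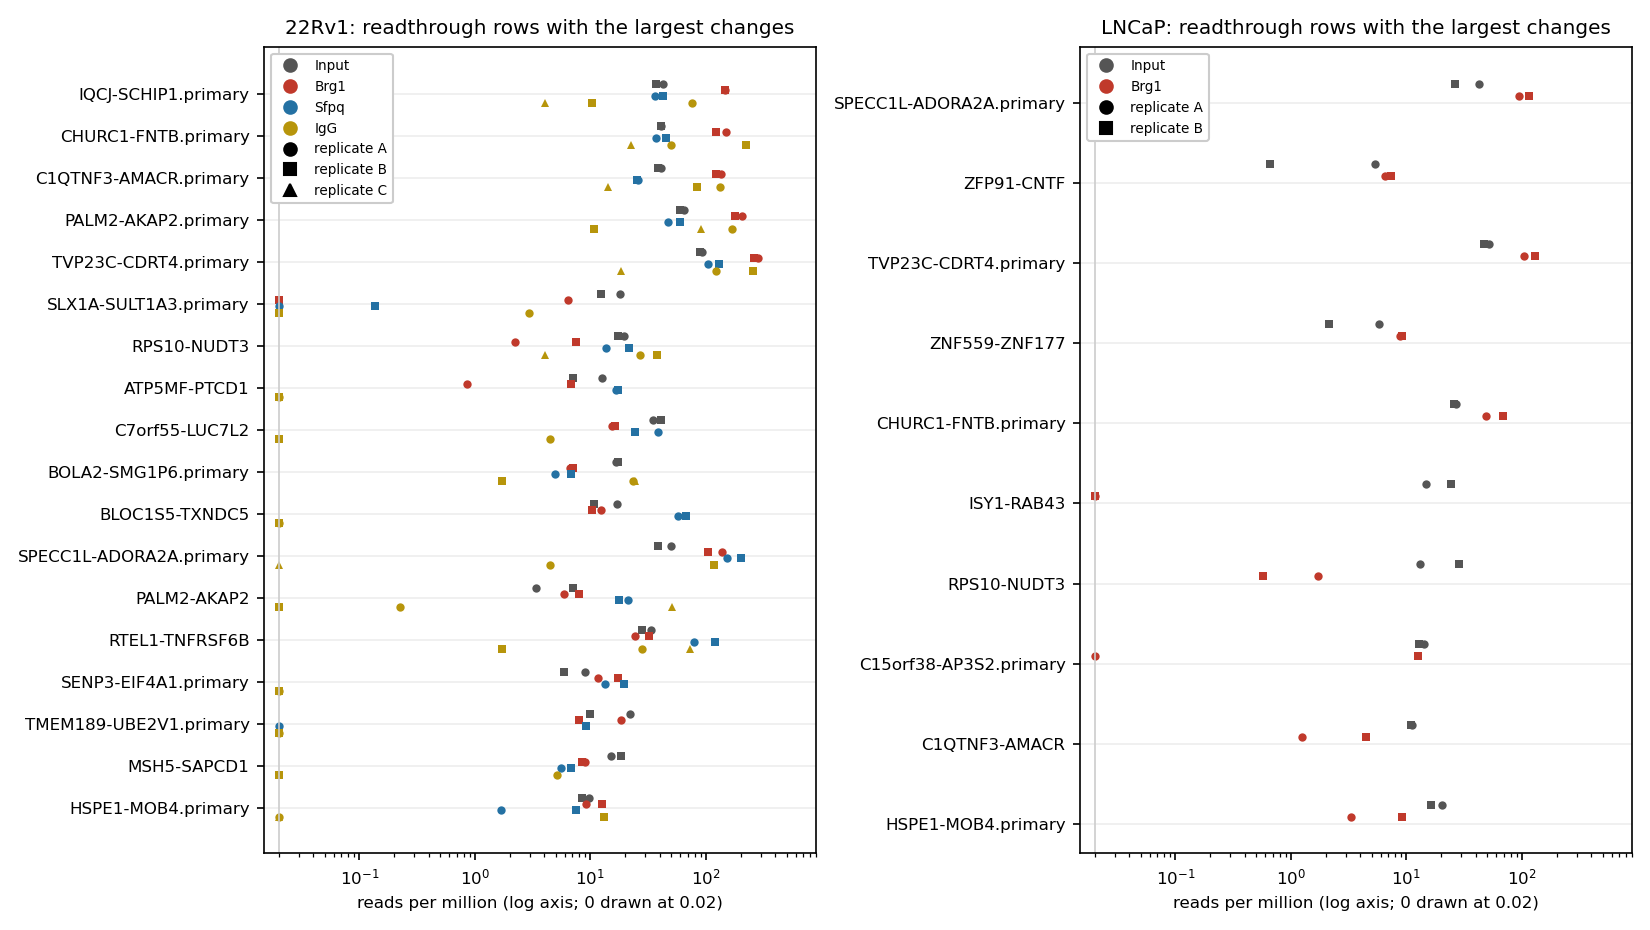
RPM (log axis, 0 drawn at 0.02) in each library of the readthrough rows with the largest called changes, in 22Rv1 (Input, Brg1, Sfpq and IgG) and LNCaP (Input and Brg1); the marker gives the replicate. The Brg1 libraries of IQCJ-SCHIP1.primary lie close together at 145 and 148, while its 3 IgG libraries run from 4.07 to 75.9.

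IgG values scattered widely. Of the 73 readthrough rows, 0 rose and 19 fell with IgG against Input in 22Rv1 by limma (1 rose and 29 fell at an unadjusted p under 0.05, and DESeq2 called 1 higher), against 0.382% and 8.74% of all rows, with a median of -2.05 against -0.96. Of the 73 rows, 23, 33 and 36 had 0 reads in IgG replicates A, B and C. The shallowest, C, had 490879 reads, and 3 of its reads are 6.11 RPM, so many low rows cannot be read there. When these IgG libraries entered the limma fit of the other groups and shared its spread, 0 readthrough rows were called with Brg1 (2 higher and 1 lower at an unadjusted p under 0.05) or Sfpq (1 and 4), while edgeR without IgG called 24 and 7, and 12 and 15. In LNCaP, 66 and 60 of the 82 readthrough rows had 0 reads in IgG, and the readthrough rows held 28 and 66 reads in all.

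In LNCaP, readthrough rows of both kinds were called in both directions. Of the 59 .primary rows, 9 rose and 11 fell with Brg1 against Input, where 23.2% of all .primary rows rose and 8.25% fell, and the median was -0.03 against 0.18. Of the 23 rows without suffix, 4 rose and 5 fell, where 2.10% rose and 20% fell, with a median of -0.22 against -0.28. Over both kinds, 13 rose and 16 fell, against 0 and 63 at the authors' scaling and 8 and 29 as shares within a kind of row. limma estimated an infinite prior degree of freedom in this fit of 4 libraries, so rows of a like level share 1 spread and a row whose replicates disagree can be called. Of the 13 rows that rose, the count without Input replicate B was 1. Of the 29 rows called, 4 had overlapping groups: CKLF-CMTM1.primary, SENP3-EIF4A1.primary, SLX1A-SULT1A3 and TMX2-CTNND1.primary.

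SPECC1L-ADORA2A.primary had 42.5 and 26.6 RPM in LNCaP Input and 94.4 and 116 with Brg1 (change 1.60, SE 0.25, adjusted p = 2.8e-08). TVP23C-CDRT4.primary had 51.9 and 47.3 in Input and 105 and 130 with Brg1 (change 1.22, adjusted p = 4.3e-05), and CHURC1-FNTB.primary went from 27.1 and 25.7 to 48.7 and 68.4 (change 1.10, adjusted p = 2.9e-04). C1QTNF3-AMACR.primary had 244 and 185 in Input and 376 and 484 with Brg1 (change 1.0, SE 0.26, adjusted p = 0.0016). These are shares of reads: at the authors' scaling, which lowers Brg1 against Input by 1.38 at the median of all LNCaP rows, TVP23C-CDRT4.primary changed by -0.14, CHURC1-FNTB.primary by -0.25 and C1QTNF3-AMACR.primary by -0.37. Without Input replicate B the adjusted p of these 4 rows ran from 0.083 (SPECC1L-ADORA2A.primary) to 0.39 (C1QTNF3-AMACR.primary), with changes of 0.80 to 1.28.

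ZFP91-CNTF, from a zinc finger ubiquitin ligase gene and the gene of ciliary neurotrophic factor, had 5.39 and 0.666 in LNCaP Input and 6.60 and 7.36 with Brg1 (change 1.29, adjusted p = 0.0087). ZNF559-ZNF177, from a pair of zinc finger genes, had 5.81 and 2.13 in Input and 8.79 and 9.24 with Brg1 (change 1.12, adjusted p = 0.0085), and -0.02 at the authors' scaling. Both rest on 5 to 64 reads in a library. Without Input replicate B, which was the lower of the pair in both, the changes were 0.32 (adjusted p = 0.75) and 0.56 (adjusted p = 0.51).

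ISY1-RAB43 without suffix showed the largest fall among readthrough rows with Brg1 in LNCaP. It joins a spliceosome gene to the gene of a Golgi-associated RAB GTPase and had 105 and 182 reads in LNCaP Input (14.9 and 24.2 RPM) and 0 in both Brg1 libraries, at least 43.3-fold lower against a floor of 3 reads per library (adjusted p = 9.9e-21). The row of RAB43 alone did the reverse, with 0 reads in both Input libraries and 16.6 and 16 RPM with Brg1, at least 39.6-fold higher. The row of ISY1 did not pass (15.9 and 13.1 in Input, 23.2 and 14.4 with Brg1, adjusted p = 0.36). Summed over the 3 rows, Input had 30.8 and 37.3 RPM and Brg1 39.9 and 30.5, which overlap.

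RPS10-NUDT3 fell in LNCaP from 13.2 and 28.4 to 1.73 and 0.577 (change -3.30, SE 0.35, adjusted p = 6.0e-18). C15orf38-AP3S2.primary, which ends in an adaptor complex subunit gene, had 14.2 and 12.8 in Input and 0 and 12.7 with Brg1 (change -1.97, adjusted p = 3.5e-07), and without Brg1 replicate A, at 0, it was -0.08 (adjusted p = 0.87). C1QTNF3-AMACR without suffix had 11.2 and 10.9 in Input and 1.26 and 4.47 with Brg1 (change -1.78, SE 0.35, adjusted p = 1.8e-05), the opposite of its .primary row. Summed over both rows of the name it rose by 0.94 (adjusted p = 0.0019). HSPE1-MOB4.primary fell by 1.54, from 20.4 and 16.3 to 3.30 and 9.09, and ANKHD1-EIF4EBP3, which ends in a gene for a repressor of cap-dependent translation, fell by 0.98, from 67.6 and 54.1 to 21.4 and 42.7 (adjusted p = 0.0015). Without Brg1 replicate A, the last changed by -0.49 (adjusted p = 0.14).

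The lines were set side by side for the 65 readthrough rows they share. With Brg1 against Input, 7 rows rose in both lines: C1QTNF3-AMACR, CHURC1-FNTB, SPECC1L-ADORA2A, SYNJ2BP-COX16, TMEM56-RWDD3, TVP23C-CDRT4 and ZFP91-CNTF, each in its .primary row. SLX1A-SULT1A3.primary, BOLA2-SMG1P6.primary and RPS10-NUDT3 fell in both. Those are 10.8% higher in both and 4.62% lower in both, against 12.1% and 12.3% of the 19400 rows that the tables share (13.5% and 3.85% of .primary rows, against 22.8% and 5.39%). Another 4 were called in opposite directions, 6.15% against 0.232%. Across the 65 rows, Pearson's r was 0.57 and Spearman's rho 0.50, against 0.79 and 0.77 over all shared rows. Rows are not replicates, and these values carry no p.

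Those 4 rows were HNRNPUL2-BSCL2, ISY1-RAB43.primary, RNF103-CHMP3.primary and SENP3-EIF4A1.primary. HNRNPUL2-BSCL2, which ends in the seipin gene of lipid droplet formation, had 38.8 and 42.6 RPM in 22Rv1 Input and 23.2 and 19.4 with Brg1. In LNCaP it had 37.0 and 54.6 in Input and 89.0 and 79.0 with Brg1 (change 0.88, adjusted p = 0.0041), and -0.48 at the authors' scaling. Without Input replicate A the change was 0.61 (adjusted p = 0.43). RNF103-CHMP3.primary, which ends in an ESCRT-III subunit gene, had 4.89 and 9.17 in 22Rv1 Input and 11.4 and 14.3 with Brg1, and in LNCaP 10.1 and 8.53 in Input and 4.55 and 2.02 with Brg1. SENP3-EIF4A1.primary rose in 22Rv1, from 9.02 and 5.92 to 11.8 and 17.2, but not without Brg1 replicate B (change 0.62, adjusted p = 0.089). In LNCaP it had 11.2 and 7.19 in Input and 8.32 and 0 with Brg1, and the groups overlap. ISY1-RAB43.primary was the 1 row called with overlapping groups with Brg1 in 22Rv1, at 8.84 and 19.6 in Input and 25.3 and 19.4 with Brg1 (change 0.70, adjusted p = 0.030). In LNCaP it had 19.3 and 22.5 in Input and 13.3 and 12.0 with Brg1 (change -0.68, adjusted p = 0.041). Summed with component rows of the same kind, all 4 had overlapping groups in LNCaP. Those sums changed by 0.05 (HNRNPUL2-BSCL2), 0.007 (ISY1-RAB43.primary), 0.34 (RNF103-CHMP3.primary) and -0.01 (SENP3-EIF4A1.primary). In 22Rv1 the sums changed by -0.37, 0.64, 0.95 and -0.13 in the same order, with groups that did not overlap. Whether reads were divided differently among these rows was not tested.

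**Figure D3:**
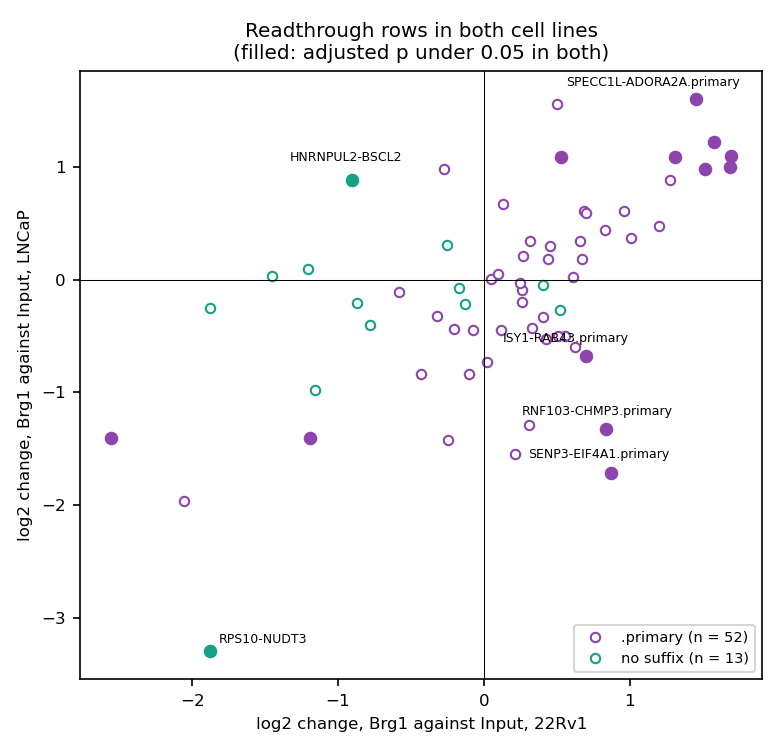
Log2 change with Brg1 against Input in 22Rv1 (x axis) and LNCaP (y axis) for the 65 readthrough rows in both tables, coloured by kind of row and filled where the adjusted p is under 0.05 in both. Filled points at upper right and lower left are the 7 rows higher and 3 rows lower in both lines, and the 4 in the other corners were called in opposite directions.

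Readthrough rows were then set beside the rows of their component genes. In 22Rv1, 56 readthrough rows had a component row of the same kind, giving 84 pairs, and a row can stand in 2 pairs. With Brg1 the readthrough changed by a median of 0.22 more than the component, 46 pairs above 0 and 38 below. The kinds of row differed: the median was 0.35 over 62 .primary pairs (36 above 0, 26 below). It was -0.19 over 22 pairs without suffix (10 above, 12 below). With Sfpq the median difference over the 84 pairs was 0.45, 52 above 0 and 32 below: 0.99 for .primary rows against the first gene, 0.48 against the second, and -0.06 for the 22 pairs without suffix. In LNCaP, 96 pairs had a median of 0.01, and both rows were called alike in 6 pairs and in opposite directions in 7, against 22 and 6 with Brg1 in 22Rv1. Fewer rows of any kind were called in LNCaP. Over all rows, 2883 rose and 3093 fell of 22169, against 6266 and 9189 of 22542 in 22Rv1, so the pair counts are not comparable between lines.

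SPECC1L.primary differed most from its readthrough with Sfpq among the 84 pairs. It had 142 and 137 RPM in 22Rv1 Input and 10.6 and 4.76 with Sfpq (change -4.10, SE 0.23, adjusted p = 1.3e-08), while SPECC1L-ADORA2A.primary rose by 1.98. The sum of both rows was 191 and 176 in Input and 163 and 205 with Sfpq, a change of -0.003, with overlapping groups. With Brg1 both rows rose and so did their sum, from 191 and 176 to 396 and 365. TXNDC5 without suffix had 139 and 157 in Input and 53.5 and 29.1 with Sfpq (change -1.88) while BLOC1S5-TXNDC5 rose, and the sum of the readthrough with both component rows went from 169 and 183 down to 140 and 118.

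SENP3-EIF4A1.primary differed from both neighbours. With Brg1 in 22Rv1 EIF4A1.primary fell from 19.2 and 15.8 to 10.1 and 5.70 (change -1.09, adjusted p = 8.8e-04), SENP3.primary did not pass (13.9 and 16.9 against 16.2 and 12.6, adjusted p = 0.73), and the readthrough rose by 0.87. The sum of the 3 rows had 42.2 and 38.6 in Input and 38.1 and 35.6 with Brg1, slightly lower. PTGES3L-AARSD1.primary, which ends in a gene for an editor of mischarged tRNA, did not pass with Brg1 (8.79 and 9.98 against 13.3 and 10.5), while AARSD1.primary fell from 11.6 and 8.67 to 3.09 and 1.97 (change -1.66, adjusted p = 1.1e-04). TVP23C-CDRT4.primary and TVP23C.primary, which share a start, both rose with Brg1 (1.58 and 1.13), and with Sfpq the first rose by 0.37 and the second fell by 0.70.

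In LNCaP, TMX2-CTNND1.primary, which ends in the p120 catenin gene, had 5.67 and 19.7 RPM in Input and 17.6 and 63.7 with Brg1 (change 1.56, groups overlapping, and 0.66 with an adjusted p of 0.11 without Brg1 replicate B), while CTNND1.primary had 266 and 211 in Input and 143 and 163 with Brg1 (adjusted p = 0.053). The sum of the readthrough with both component rows was 312 and 259 in Input and 190 and 251 with Brg1, below both Input sums. BLOC1S5-TXNDC5 without suffix did not pass in LNCaP (13.9 and 8.39 in Input, 13.7 and 13.6 with Brg1), while TXNDC5 fell from 66.9 and 85.8 to 40.5 and 21.8 (change -1.32, adjusted p = 8.8e-06). BSCL2 without suffix fell from 50.3 and 55.0 to 33.0 and 23.2 (change -0.90, adjusted p = 0.0035) while HNRNPUL2-BSCL2 rose.

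Summing each readthrough row with its component rows of the same kind gave values that do not depend on how reads are divided among those rows, and whether such a division moved with the antibody was not tested. Where 1 of the component genes has no row of that kind, as for SPECC1L-ADORA2A.primary and ISY1-RAB43.primary, the sum leaves that gene out. Each sum includes the readthrough row itself, so a row that outweighs its components sets the side of its sum. With Brg1 in 22Rv1, IQCJ-SCHIP1.primary had 1264% and 1351% of the reads of its component row. The counts of like sides below are therefore partly built in. In 22Rv1 with Brg1, 21 of 56 readthrough rows with a component row rose, and in 17 of them both Brg1 sums lay above both Input sums, and in 3 both lay below. The 8 that fell had 8 sums below Input. With Sfpq, 10 rose, of which 6 had sums above Input and 2 below, and 13 fell, of which 11 had sums below and 1, HNRNPUL2-BSCL2, had sums above. In LNCaP, 12 of 64 rose, of which 5 had sums above Input and 2 below, and 14 fell, of which 6 had sums below and 1 above. Among all single rows, called or not, both Brg1 libraries lay above both Input libraries in 7886 of 22542 in 22Rv1. They lay below in 11480. By kind, 7385 of 11687 .primary rows lay above and 9252 of 10855 rows without suffix below. With Sfpq, 7494 of all rows lay above and 10658 below, and in LNCaP 6312 and 7907 of 22169. Sums over all genes were not counted. The readthrough row and its sum differed by more than 1 on the log2 scale in 9, 8 and 15 rows.

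**Figure D4:**
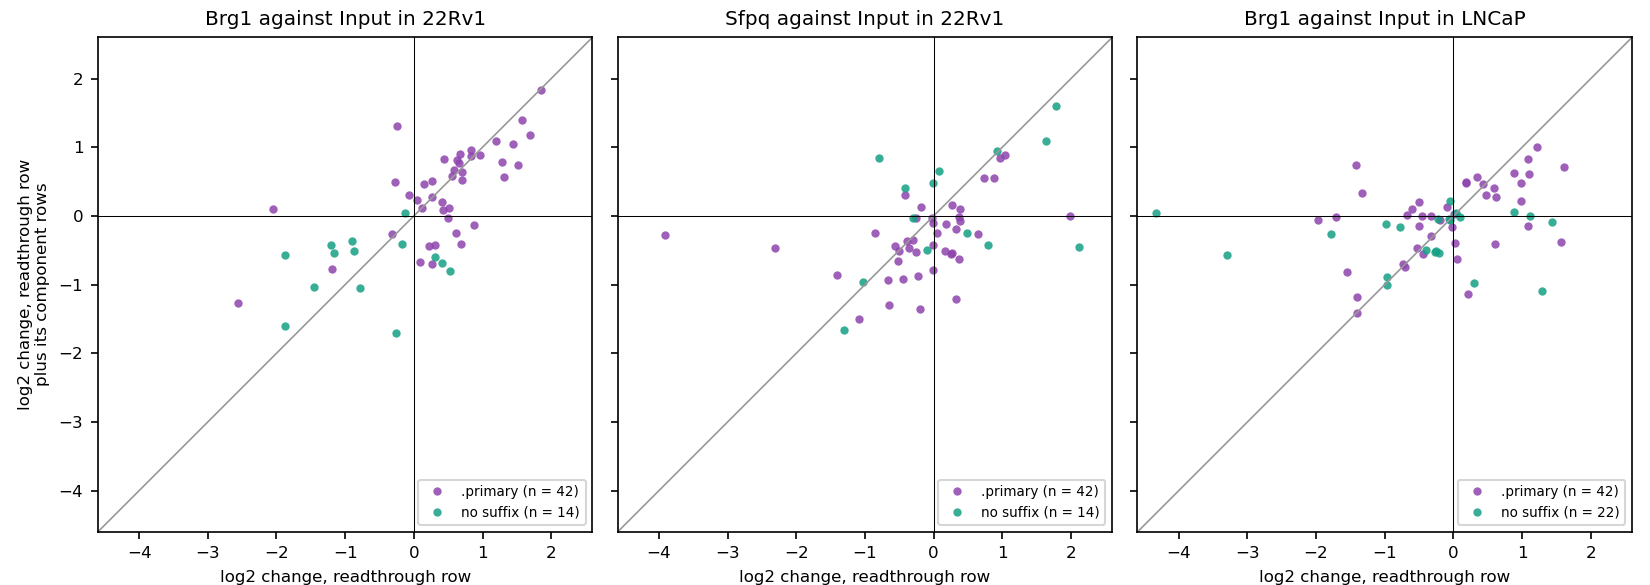
Log2 change of a readthrough row (x axis) and of the sum of that row with its component rows of the same kind (y axis), by comparison, with the line of equality. Points far from the line changed by a different amount once components were added: ISY1-RAB43 at the left of the LNCaP panel moves from -4.32 to 0.04.

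Some readthrough rows were at 0 in 1 replicate and present in the other. Of readthrough rows with at least 30 reads in 1 library of a pair, 3 of 73 (4.11%) had 0 reads in the other Brg1 library in 22Rv1 and 3 of 78 (3.85%) in LNCaP, against 0.160% and 0.176% of all rows. These were SLX1A-SULT1A3, CKLF-CMTM1 and C15orf38-AP3S2 in 22Rv1 and C15orf38-AP3S2, SENP3-EIF4A1 and, without suffix, URGCP-MRPS24 in LNCaP. Among component rows the same held for 2 of 156 and 2 of 152.

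Names with both kinds of row gave the kinds a direct comparison. With Brg1 in 22Rv1, the .primary row changed more than the row without suffix in 8 of 11 readthrough names, by a median of 1.16, and in 91.3% of all 8246 such names, by a median of 1.10. IQCJ-SCHIP1 differed most, at 1.85 for the .primary row and -0.58 without suffix. With Sfpq the .primary row changed more in 4 of 11 names, with a median of -0.54 against -0.91 over all names. In LNCaP, it changed more in 11 of 18, by a median of 0.20 against 0.31.

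Among .primary rows, change with Brg1 was set against gene length. Across the 57 readthrough .primary rows in 22Rv1, Spearman's rho of RefSeq span with change was 0.59, and 0.51 across 10107 .primary rows with a span. In LNCaP it was 0.44 over 59 rows and 0.44 over 9840, and with Sfpq 0.02 and 0.07. Rows share libraries and depth, and these are descriptions with no p.

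Genes of cleavage, polyadenylation and termination, 20 in number, had 36 rows in 22Rv1. With Brg1, 0 of their 20 rows without suffix rose (0 also at an unadjusted p and by edgeR and DESeq2) and 13 fell, against 2.43% and 74.2% of all such rows. Of their 16 .primary rows 2 rose and 3 fell, against 51.4% and 9.74%. With Sfpq, 12 of the 20 rows without suffix rose and 2 fell, against 38.2% and 20.3% of all, and 1 of 16 .primary rows rose and 14 fell, against 11.8% and 50.7%. In LNCaP, 0 of 35 rows rose and 3 fell with Brg1 by limma (1 was higher at an unadjusted p under 0.05, and edgeR and DESeq2 called 0 higher), against 2883 and 3093 of all 22169 rows.

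The -AS and -DT rows numbered 9 in 22Rv1 and 12 in LNCaP. Whether reads were counted by strand is not given in the sources used here, so reads of an antisense row and of the gene opposite may not be told apart. With Brg1 in 22Rv1, 5 rose and 3 fell, against 27.8% and 40.8% of all rows. Of their 7 .primary rows 5 rose and 2 fell, against 51.4% and 9.74% of all .primary rows. With Sfpq 2 rose and 0 fell (0 also at an unadjusted p and by edgeR and DESeq2), against 24.5% and 36.1% of all rows. The 2 were among the 7 .primary rows, where 11.8% of all .primary rows rose and 50.7% fell. MRPS30-DT.primary, divergent from a mitochondrial ribosomal protein gene, had 4.07 and 4.18 RPM in 22Rv1 Input and 20.7 and 16.7 with Brg1 (change 1.93, adjusted p = 1.2e-05), with IgG at 45.4, 1.71 and 12.2 on both sides. In LNCaP it rose by 1.11, from 5.25 and 4.40 to 11.9 and 11.1 (adjusted p = 0.0037). FRG1-DT.primary had 31.2 and 30.2 in 22Rv1 Input and 82.9 and 75.6 with Brg1 (change 1.34, adjusted p = 2.0e-06), and 202 and 157 against 265 and 314 in LNCaP (change 0.70, adjusted p = 0.032). BACE1-AS.primary, antisense to the gene of beta-secretase, had 9.57 and 10.4 in Input and 3.16 and 8.06 with Brg1 (change -0.84, adjusted p = 0.019), and 21.3 and 24.1 with Sfpq (change 1.11, adjusted p = 0.0043). In LNCaP, 3 of the 12 rose and 1 fell, against 2883 and 3093 of all 22169 rows. Of their 9 .primary rows 3 rose and 0 fell, against 23.2% and 8.25% of all .primary rows.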

How the data were processed

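The authors deposited 1 table per cell line of a normalized signal. The submitters' processing notes name STAR 2.6, Salmon 0.8.2, deepTools 2.5.2, DESeq2 and the build hg38, with no role or order, and the labels do not state how the values were scaled. Within 0.001 read, 100% of the values were whole multiples of each library's smallest positive value, which was taken as 1 read. Shares of these reads (RPM) were tested with limma 3.58.1 in R 4.3.3 (lmFit, eBayes with trend) on log2 with a pseudocount of 1. No filter was applied here to the deposited rows, so every member with a row was tested. In 22Rv1, 22516 of the 22542 rows had at least 30 reads in an Input library. Whether low rows were left out before deposit was not tested, so a missing row need not mean missing RNA. The 22Rv1 fit held Brg1, Sfpq and Input (6 libraries), the LNCaP fit Brg1 and Input (4), and IgG was tested in a fit of all 9 libraries of 22Rv1. The test was first checked on simulated data for the 22Rv1 fit only, with the same setting of spread for every row. The LNCaP fit and rows whose replicates disagree strongly were not simulated, so the check does not cover their calls. Totals per library set precision: 3 reads, the floor, are 0.0627 to 6.11 RPM in 22Rv1, and floors and intervals cover counting error only. No pair of libraries agreed within sampling noise (lowest chi-square per degree of freedom 2.46).

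Named rows were the 5 with the highest Input share in each line, up to 5 called and non-overlapping rows per direction with the largest change in each comparison, the 3 with at least 20 reads in every Brg1 and Input library that differed most from a component row in each line, C1QTNF3-AMACR, and their component genes. TMEM110-MUSTN1 was on the list, but neither part of the name has a row, so it was no member. Rows with opposite calls in the lines, zero counts or -AS and -DT names were named after their values were seen. The members and lists were chosen with earlier results of these data known. Alternatives were pseudocounts of 0.1 and 5, a minimum mean, the deposited scaling, TMM, shares within a kind of row, summed rows, no trend, the replicate block, edgeR 4.0.16, DESeq2 1.42.0, other groups in the fit and leaving out each library. Placing rows with a whole group at or under the floor at their bound (1 row with Sfpq, 1 in LNCaP) moved no median. Strand-specific counting is not given in the sources used here, and spike-in rows were not analysed here.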

Additional observations from a re-analysis of the deposited data

Results flagged for a closer look

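In 7 of the 65 shared readthrough rows (10.8%, against 5.3% of all 19400 shared rows), both Brg1 libraries lay above both Input libraries in one cell line and below both in the other. The difference between the lines was not tested. CORO7-PAM16.primary changed by 0.56 in 22Rv1 and -0.50 in LNCaP. HNRNPUL2-BSCL2 changed by -0.91 in 22Rv1 and 0.88 in LNCaP. PTGES3L-AARSD1.primary changed by 0.31 and -1.29, RNF103-CHMP3.primary by 0.83 and -1.33, TGIF2-C20orf24.primary by 0.41 and -0.33, TMED7-TICAM2.primary by 0.33 and -0.43, and ZHX1-C8orf76.primary by 0.43 and -0.52, 22Rv1 first. Summed with component rows of the same kind, HNRNPUL2-BSCL2 changed by -0.37 and 0.05, CORO7-PAM16.primary by 0.575 and 0.21, and RNF103-CHMP3.primary by 0.95 and 0.34. Such sums changed by 0.20 and -0.007 for TGIF2-C20orf24.primary and by 0.08 and -0.47 for ZHX1-C8orf76.primary. PTGES3L-AARSD1.primary and TMED7-TICAM2.primary had no component row of the same kind in LNCaP.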

How the results depend on the processing

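Of the changes of named rows under each alternative, 554 kept their direction and their side of the threshold, 104 lost the call and 6 reversed. At the deposited scaling in LNCaP, C1QTNF3-AMACR.primary changed by -0.37, CHURC1-FNTB.primary by -0.25, HNRNPUL2-BSCL2 by -0.48, TVP23C-CDRT4.primary by -0.14 and ZNF559-ZNF177 by -0.02, by construction, since that scaling shifts the median of all rows by -1.38 (-0.44 for Brg1, -0.53 for Sfpq and -6.88 for IgG in 22Rv1). TMM and DESeq2 size factors shifted it by 0.22 and 0.18 for Brg1 in 22Rv1. C1QTNF3-AMACR summed over both rows changed by 0.94. Counts of readthrough rows called moved by over 1.5 times as follows, and where no construction is named the cause was not tested. Deposited scaling gave 6 higher for Brg1 and 4 for Sfpq in 22Rv1, 0 higher and 63 lower in LNCaP (limma), and 72 lower for IgG. Shares within a kind of row gave 14 higher and 21 lower for Brg1 in 22Rv1 and 8 and 29 in LNCaP. With IgG in the same limma fit, 0 rose and 0 fell for Brg1 (2 and 1 at an unadjusted p under 0.05; edgeR 24 and 7, DESeq2 37 and 6 without IgG), 0 and 0 for Sfpq (1 and 4; edgeR 12 and 15, DESeq2 20 and 8) and 0 and 1 in LNCaP (6 and 12; edgeR 14 and 17, DESeq2 10 and 9). Names with both parts present, fewer rows by construction, gave 17 and 5 for Brg1, 9 higher for Sfpq and 7 higher in LNCaP. For rows lower with Sfpq, edgeR with TMM gave 12 and DESeq2 8, and DESeq2 gave 9 in LNCaP. The replicate block gave 4 higher in LNCaP, and 2 higher and 30 lower for IgG, and moved no other count by over 1.5 times. Over rows, A minus B differences correlated with those of Input at 0.02 (Brg1), -0.15 (Sfpq) and -0.01 (IgG) in 22Rv1 and -0.35 (Brg1) in LNCaP. With a single such difference per group, these values cannot tell whether the letters pair the libraries. Crossed letters, chosen after seeing the data, gave 27 lower in LNCaP. For IgG lower, a pseudocount of 0.1 gave 11, summed rows 12, edgeR 10 and edgeR with TMM 9, and DESeq2 called 1 higher. Leaving out 1 library, with a lone library assumed to vary like the others, gave 8 to 13 higher and 11 to 21 lower for Sfpq, 1 to 18 and 7 to 18 in LNCaP, and 0 to 3 and 4 to 32 for IgG.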
